A study of Rattus norvegicus with 44 samples.

Results

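The insulin-like growth factor (IGF) family was examined through 9 genes in the dentate gyrus (DG) of 44 rats, each gene taken by its symbol with its rows summed per gene identifier, out of 18347 identifiers in the expression table. The members were the ligands Igf1 and Igf2, the receptor Igf1r and the binding proteins Igfbp2, Igfbp3, Igfbp4, Igfbp5, Igfbp6 and Igfbp7, and all 9 passed the filter on low values. All animals were male F344 rats, and 1 library of poly(A) RNA from the DG of 1 hemisphere stood for each rat. Young rats (YNG, n = 10) were 6 months old, and the older rats were treated from 12 months and were 18 months old at tissue collection. They received vehicle (AV, n = 12), ABT-263 at 12 mg/kg (AA, n = 11) or dasatinib at 1.2 mg/kg with quercetin at 12 mg/kg (ADQ, n = 11). ABT-263 is an inhibitor of the BCL-2 family, dasatinib a tyrosine kinase inhibitor and quercetin a plant flavonol, all used as senolytics, drugs meant to remove senescent cells. GEO's sample labels gave only the age (as 12 months for the older rats), so treatments were taken from the deposited attribute table, matched by sample title. That table labels the young rats "Young - Vehicle", while the study's methods name no agent for them.

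IGF-I and IGF-II are small secreted hormones that signal through the IGF-I receptor, a tyrosine kinase whose main intracellular routes are the PI3K-AKT and the RAS-MAPK cascades. In tissue fluid most IGF is held by binding proteins, which store it, carry it and limit or prolong its access to the receptor, and proteases release it from them. In the hippocampus IGF-I is known as a trophic factor for neurons and for the progenitor cells of the DG, while IGF-II comes largely from the meninges, the choroid plexus and vessels.

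After the authors' scaling, the summed normalized counts of a rat still lay between 14297964 and 20579982. Their median was higher for young rats (16660960) than for vehicle (15537154), ABT-263 (15470836) or dasatinib and quercetin rats (15376067), with overlapping ranges. All 10 markers of dentate granule cells were above 0 in every rat, and their summed level ran from 7261 to 24880. Rat 3989 of AV stood apart, with a median correlation of 0.918 with the other rats and the highest summed level of all rats for 7 of the 12 marker lists, and rats 4107 and 3996 of AA came next at 0.951. The rats also fell into 2 series by number (up to 4011 and V1 to V6 in the first), each holding rats of every group. In the second series the AV rats were numbered 4566 to 4572 and the AA and ADQ rats 4031 to 4110. There, a difference between treated and AV rats cannot be told apart from one between these blocks of numbers. The difference between older rats and YNG itself differed between these series in 20.3% of all genes tested, so values within each series are given beside the main results.

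Values below are normalized counts, and differences are on the log2(value + 1) scale from limma, called at an unadjusted p below 0.05, with the p adjusted over all 15598 genes beside it. For older rats as a whole, the mean of the 3 older group means was compared with YNG. There, 4 of the 9 members were lower (Igf1, Igfbp2, Igfbp5 and Igfbp6) and 1 was higher (Igf1r), where 16.7% of all genes were called lower and 15.7% higher. At an adjusted p below 0.05, Igfbp2 and Igfbp5 remained lower and Igf1r higher, beside 14.9% of all genes called in either direction. The median change over the 9 members was −0.03, and over all genes tested 0.0039. In bulk tissue, fewer cells of a type and less RNA per cell cannot be told apart.

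**Figure D1:**
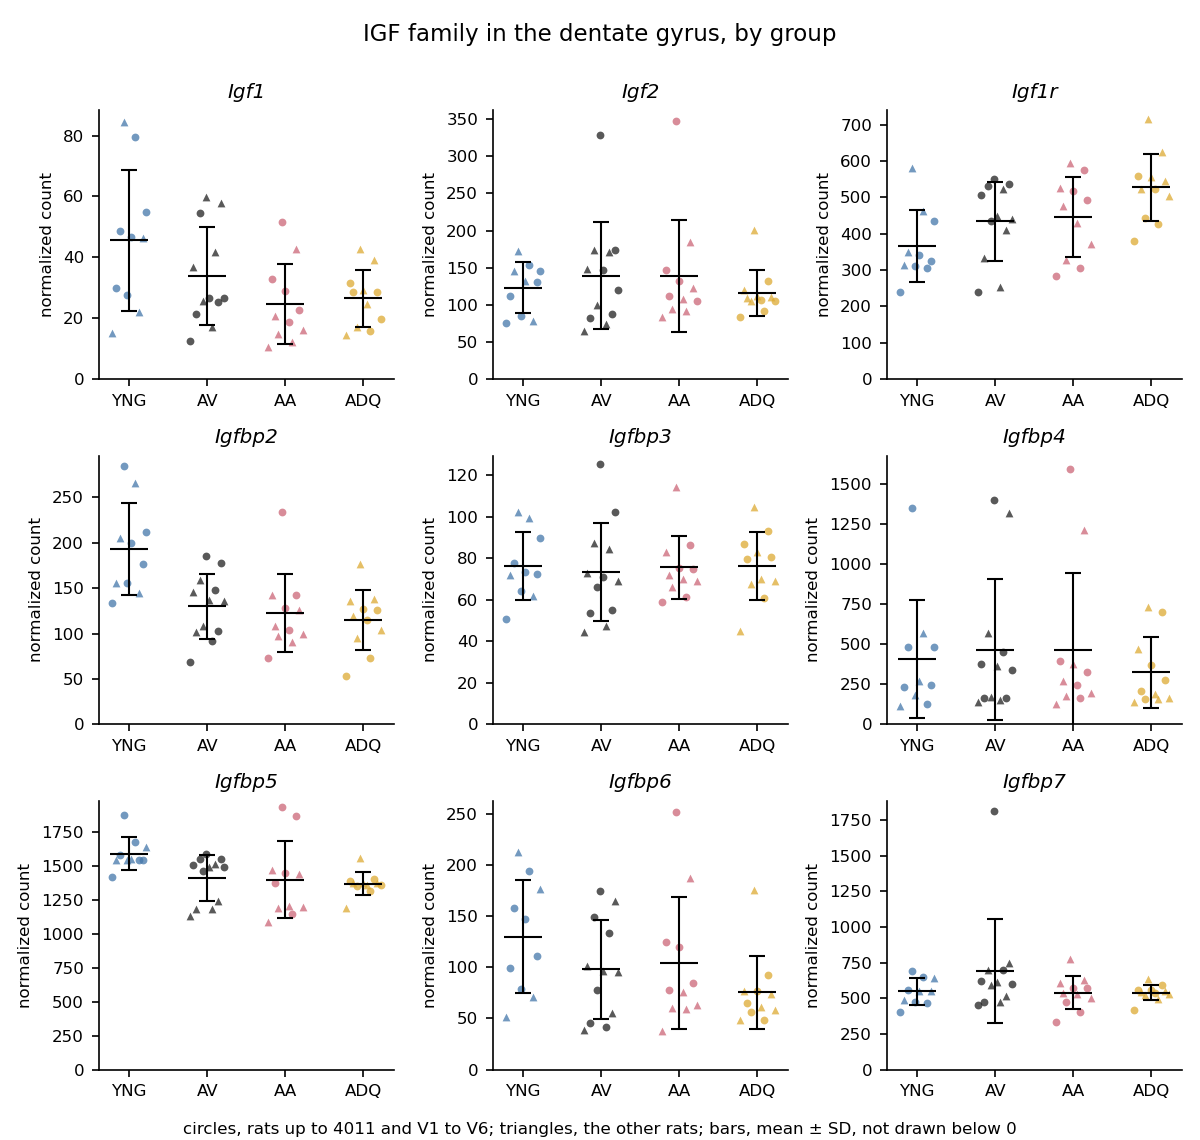
Normalized counts of the 9 genes in each rat (vertical axes, from 0), by group, with 10 YNG, 12 AV, 11 AA and 11 ADQ rats. Points are rats, circles for rats up to 4011 and V1 to V6 and triangles for the others, and bars give the mean ± SD, not drawn below 0. Igfbp2 lay lower in all 3 older groups, Igf1r was highest in ADQ, and Igfbp4 reached 1212 or more in 5 rats while the next rat was at 732.3.

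The promoters of the 3 genes with an adjusted p below 0.05 in older rats are shown because these members moved in opposite directions. RefSeq (GRCr8) held promoters for 9 of 9 members, each window being 300 bases around the start of transcription. Capitals mark GGGCGG or its reverse complement, the GC box bound by Sp1 factors, searched on both strands together with TATAAA. Written 5′ to 3′ on the gene's own strand, they read:
Igfbp2, chr9:81864561-81864860, plus strand: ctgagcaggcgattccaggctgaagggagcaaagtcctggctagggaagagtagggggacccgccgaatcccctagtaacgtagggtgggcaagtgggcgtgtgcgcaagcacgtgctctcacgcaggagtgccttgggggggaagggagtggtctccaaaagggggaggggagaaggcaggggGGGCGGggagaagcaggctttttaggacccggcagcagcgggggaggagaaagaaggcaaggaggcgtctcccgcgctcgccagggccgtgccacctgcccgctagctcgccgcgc
Igfbp5, chr9:81914138-81914437, minus strand: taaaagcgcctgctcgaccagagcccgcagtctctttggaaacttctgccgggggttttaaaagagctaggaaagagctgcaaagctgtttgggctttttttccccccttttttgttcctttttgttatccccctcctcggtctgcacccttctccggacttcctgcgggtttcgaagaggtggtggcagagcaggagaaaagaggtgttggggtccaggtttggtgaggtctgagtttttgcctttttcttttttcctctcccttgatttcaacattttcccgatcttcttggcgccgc
Igf1r, chr1:130959747-130960046, plus strand: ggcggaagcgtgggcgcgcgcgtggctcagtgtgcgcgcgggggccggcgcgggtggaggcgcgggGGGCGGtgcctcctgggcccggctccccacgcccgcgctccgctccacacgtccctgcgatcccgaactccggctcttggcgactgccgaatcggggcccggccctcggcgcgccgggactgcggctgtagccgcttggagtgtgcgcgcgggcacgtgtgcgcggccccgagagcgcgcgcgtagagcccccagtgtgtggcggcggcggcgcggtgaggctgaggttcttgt
The Igfbp2 and Igf1r windows held 1 GC box each and the Igfbp5 window held none, where 33.1% of the 33469 RefSeq promoters of this length held at least 1. None of the 3 held TATAAA, which stood in 14.2% of all promoters and, among the members, in Igfbp4. The Igf1r window was 78% G and C with 50 CpG sites, the Igfbp2 window 66.7% with 20 and the Igfbp5 window 50.7% with 11, against a median of 51.7% G and C over all promoters. Igfbp2 and Igfbp5, the pair that fell, are neighbours on chromosome 9 with 0 annotated genes between them, on opposite strands.

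Among the ligands, Igf1 was lower in older rats. Its level in YNG ran from 15 to 84.6 with a median of 46.5. Medians were 26.7 in AV (range 12.4 to 59.9), 20.6 in AA (range 10.4 to 51.6) and 28.5 in ADQ (range 14.5 to 42.7). All groups overlapped, but no older rat reached the highest YNG rat and 30 of 34 older rats lay below the YNG median. The change was −0.63 ± 0.24 (SE) over all older rats (p = 0.0104, adjusted p = 0.060). It was called in AA (−0.84, p = 0.0053, adjusted p = 0.067) and ADQ (−0.66, p = 0.025, adjusted p = 0.12), while in AV it was −0.39 with a 95% interval of −0.95 to 0.17 (p = 0.17). In AA it was called within neither series alone (−0.60, limma p = 0.077, and −0.93, p = 0.051). The ADQ call was lost within the second series (−0.38, p = 0.41) and with total scaling (−0.52, p = 0.057). The AV value depended on the setting, between −0.86 and 0.10 over 21 alternatives. It was called with array weights (−0.86, p = 0.0014), within the first series (−0.80, p = 0.017) and with the oligodendrocyte, microglia, red blood cell or granule cell score as a covariate (−0.74 to −0.53), and was 0.10 within the second series (p = 0.83). Within the first series the change over all older rats was −0.76 and within the second −0.40, where it was no longer called (p = 0.31).

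The 3 rows of Igf1 shared its reads unevenly, the main row holding between 0.0010% and 100% of the gene's value in a rat with a median of 61.7%. The row sum is used throughout. The Igf1 call in ADQ was lost without rat V2 (−0.55, p = 0.062) or V12 of YNG (−0.54, p = 0.065). With the highest row alone, the Igf1 difference of AA against YNG was −0.74 and was not called (p = 0.12). That of ADQ against AV was then −1.75 and called (limma p = 0.00027), where the row sum gave −0.27.

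Igf2 did not separate the groups. YNG rats ran from 75.2 to 172 with a median of 132. Vehicle rats spanned 65.3 to 328 (median 133), ABT-263 rats 83.6 to 348 (112) and dasatinib and quercetin rats 83 to 200.2 (109.7). Single rats set the upper ends, rat 3985 in AA, rat 3989 in AV and rat 4074 in ADQ. The change over all older rats was 0.04 (95% interval −0.33 to 0.40, p = 0.83), 0.19 in the first series and −0.14 in the second. The main one of the 3 Igf2 rows held between 33.8% and 83.5% of its value.

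Igf1r, the receptor, rose in older rats and stood highest in ADQ. YNG rats ran from 239 to 580 with a median of 333. Medians were 443.5 in AV (range 239 to 550.2), 476 in AA (range 282 to 593) and 524 in ADQ (range 379 to 715). The groups overlapped, yet all 11 ADQ rats lay above the YNG median, as did 9 of 12 AV and 8 of 11 AA rats. The change was 0.35 ± 0.12 (SE), 1.28-fold, over all older rats (p = 0.0067, adjusted p = 0.047). In ADQ it was 0.55, 1.46-fold (p = 0.00077, adjusted p = 0.027), and the differences of AV (0.24, p = 0.12) and AA (0.28, p = 0.069) were not called. Over 21 alternatives the AV value ran from −0.09 to 0.48 and was called in 7, and the AA value ran from 0.10 to 0.44 and was called in 5. The change over all older rats was 0.46 within the first series and 0.16 within the second (p = 0.34 there), and the difference between series was not called (p = 0.23). Without rat V11 of YNG the differences of AV (0.31, p = 0.037) and AA (0.36, p = 0.020) were called as well.

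Igfbp2, the binding protein of fetal and choroid plexus tissue and of astrocytes, fell in every older group. YNG rats ran from 133 to 284 with a median of 188. Medians were 136 in AV (range 68.4 to 185), 108 in AA (range 72.7 to 234) and 119 in ADQ (range 53 to 177). Of 34 older rats, 33 lay below the YNG median and 21 below the lowest YNG rat, and rat 3985 of AA was the 1 older rat above the median. The change over all older rats was −0.68 ± 0.15 (SE), 0.63-fold (p = 4.4e-05, adjusted p = 0.0054). By group it was −0.58 in AV (p = 0.0021, adjusted p = 0.067), −0.68 in AA (p = 0.00050, adjusted p = 0.037) and −0.77 in ADQ (p = 0.00011, adjusted p = 0.017). Over all older rats it was −0.73 in the first series and −0.63 in the second, and it was called in all 20 alternative settings tried, between −0.83 and −0.55. In AA it was not called within the first series alone (−0.57, p = 0.067).

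Igfbp5, a binding protein that attaches to the extracellular matrix, fell by a small margin. YNG rats ran from 1414 to 1871 with a median of 1545, and the medians were 1489 in AV (range 1131 to 1583), 1375 in AA (range 1082 to 1933) and 1370 in ADQ (range 1190 to 1559). In ADQ 10 of 11 rats lay below the lowest YNG rat, in AA 6 of 11 and in AV 4 of 12, while AA also held the highest rat of all. The change over all older rats was −0.20 ± 0.07 (SE), 0.87-fold (p = 0.0039, adjusted p = 0.037). It was −0.18 in AV (p = 0.026), −0.21 in AA (p = 0.013) and −0.22 in ADQ (p = 0.0104), none with an adjusted p below 0.05. With each rat scaled to the same total, the median of all genes moved to 0.13 in this comparison, 83.05% of calls were then higher in place of 48.4%, and the Igfbp5 change was −0.07 (p = 0.38). Within the first series it was −0.12 (p = 0.17) and within the second −0.27. The first series alone held no call in AV (−0.07, limma p = 0.51) or AA (−0.07, p = 0.54), and the second none in ADQ (−0.20, p = 0.067). The AV call was lost without rat 4566, 4571 or 4572 of AV or rat V5 of YNG (p between 0.051 and 0.060).

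Igfbp6, which binds IGF-II preferentially, was lower in older rats at the unadjusted threshold. YNG rats ran from 51.1 to 213 with a median of 129, and the medians were 95.7 in AV (range 38.5 to 175), 77.6 in AA (range 38 to 252) and 65 in ADQ (range 48 to 175.5). The ranges overlapped widely, and 27 of 34 older rats lay below the YNG median. The change was −0.53 ± 0.24 (SE) over all older rats (p = 0.034, adjusted p = 0.12) and −0.74 in ADQ (p = 0.015, adjusted p = 0.094). In AV (−0.45, p = 0.12) and AA (−0.39, p = 0.19) it was not called, though it was in 6 and 5 of 21 alternatives (−1.01 to −0.35 in AV, −0.79 to −0.07 in AA). Leaving out any 1 of the rats V1, V2, V6, V9 and V12 of YNG ended the call over all older rats (p between 0.058 and 0.088), as did scaling to the same total (−0.40, p = 0.10). Within the series the change over all older rats was −0.49 (p = 0.093) and −0.50 (p = 0.20). The ADQ call was lost within the second series (−0.53, limma p = 0.25).

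Igfbp3, the main carrier in blood, was not called in any comparison, with YNG rats at 50.7 to 102 (median 73) and older rats at 44.7 to 125.5 (median 71.6). Its change over all older rats was −0.03 (95% interval −0.29 to 0.22), 0.09 in the first series and −0.20 in the second. Igfbp4, an inhibitory binding protein that the protease PAPP-A cleaves, spread the most. YNG rats lay between 117 and 1351 (median 256), AV rats between 139 and 1400 (352), AA rats between 129 and 1595 (273) and ADQ rats between 139.7 and 732.3 (210.5), a 13.6-fold range over the 44 rats, so its interval for older rats was wide (0.01, −0.72 to 0.75), with −0.07 in the first series and 0.24 in the second. Igfbp7, a secreted protein of vessels with low affinity for IGF, ran from 401 to 688 in YNG (median 552) and from 332 to 1809 in older rats (median 553), the highest being rat 3989 of AV and the next 773. Its change over all older rats was 0.07 (−0.18 to 0.31), and 0.05 in each series.

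**Figure D2:**
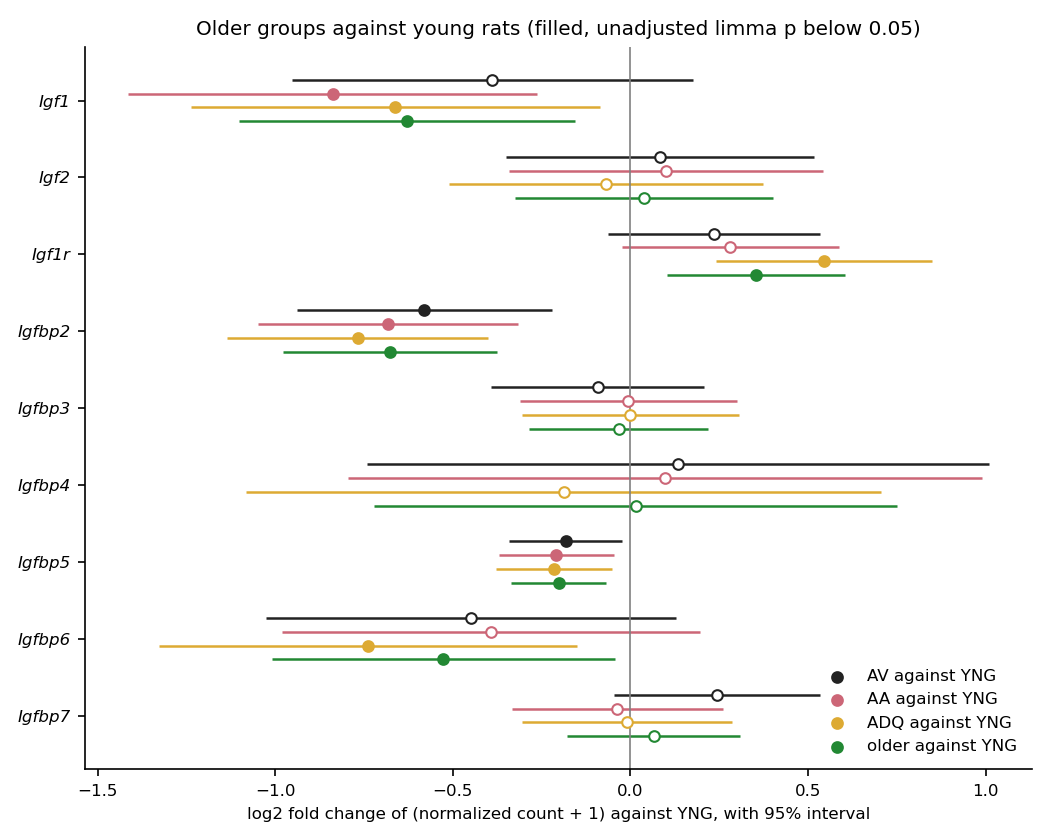
Difference of each older group, and of all older rats, from YNG on the log2(value + 1) scale (horizontal axis; points are limma estimates and lines 95% intervals). Filled points have an unadjusted p below 0.05. Igfbp2 and Igfbp5 were filled in all 4 comparisons, Igf1r in ADQ and over all older rats, and Igf2, Igfbp3, Igfbp4 and Igfbp7 in none.

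Group by group against YNG, 2 members were lower and 0 higher in AV, beside 10.7% of all genes lower and 10.6% higher (2.35% at an adjusted p below 0.05, and 0 of the members). In AA, 3 were lower and 0 higher, beside 14.1% and 12.6% (3.85% adjusted, and 1 of the members). In ADQ, 4 were lower and 1 higher, beside 14.6% and 13.5% (7.08% adjusted, and 2 of the members). These 3 comparisons rest on the same YNG rats.

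The treated older groups were next set against AV, which asks whether a senolytic moved the IGF genes. The AA and ADQ comparisons share the AV rats. Within the second series, treatment and block of rat numbers cannot be told apart in them. In AA, 0 of 9 members were called by limma, either at an unadjusted p below 0.05 or after adjustment, beside 1.4% of all genes higher and 3.1% lower, and the permutation test called 0 as well. The Igfbp7 difference of −0.28 had a p of 0.053 (95% interval −0.56 to 0.0033). It was −0.57 in the first series and −0.03 in the second. Without rat 3989 of AV, the highest in Igfbp7, it was −0.14 (p = 0.18). It was called without any 1 of the rats 4010, 4011, 4566 and 4567 of AV or 4035, 4036 and 4107 of AA (p between 0.022 and 0.045), and at −0.22 without rats 3989, 4107 and 3996 together (p = 0.044). The Igfbp2 difference was −0.10 (−0.45 to 0.25) and that of Igf1 −0.45 (−0.998 to 0.10), called without rat 3985 of AA (−0.57, p = 0.043) or rat 3999 of AV (−0.56, p = 0.044). The Igf1 difference was 0.20 in the first series and −1.03 in the second, and that of Igfbp2 0.06 and −0.25.

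In ADQ, 1 member was higher than in AV and 0 lower, beside 3.42% of all genes higher and 5.9% lower. This was Igf1r, at 0.31 ± 0.14 (SE), 1.24-fold (p = 0.037, adjusted p = 0.51). The call did not hold without rat 3989 (0.24, p = 0.096), without rat 4567 (0.24, p = 0.090) or without rat 4571 of AV (0.28, p = 0.065), nor without any 1 of the rats 4007, 4031, 4032 and 4074 of ADQ (p between 0.051 and 0.079). Within the first series the difference was 0.04 and within the second 0.55, without a called difference between the series (p = 0.073). The Igfbp2 difference was −0.19 (−0.54 to 0.16), that of Igf1 −0.27 (−0.82 to 0.28) and that of Igfbp7 −0.25 (−0.54 to 0.03), the last −0.12 without rat 3989 of AV (p = 0.27) and called without rat 4010, 4011 or 4567 of AV (p between 0.041 and 0.046). In the first and second series it was −0.37 and −0.14 for Igfbp7, −0.37 and −0.04 for Igfbp2 and −0.08 and −0.48 for Igf1. The Igf1 difference depended on the choice of row, at −1.75 with the highest row alone (limma p = 0.00027).

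Markers of some other cell types moved with this comparison. Of 12 microglia markers 9 were lower in ADQ than in AV, of 6 red blood cell markers tested all 6, of 9 endothelial markers tested 7 and of 10 oligodendrocyte markers 5, beside 5.9% of all genes. Lower too were 2 of 5 choroid plexus, 3 of 12 pericyte and vascular smooth muscle and 2 of 10 astrocyte markers tested. Of 8 CA3 pyramidal and mossy cell markers tested, 1 was higher and 1 lower. Of the 10 granule cell, 10 interneuron, 12 meninges and fibroblast and 4 CA1 markers tested, 0 were called. The summed microglia level was 6794 to 13720 in AV and 5911 to 7972 in ADQ, with no marker at 0 in any of these rats. For red blood cells it was 3785 to 95410 in AV and 3430 to 14330 in ADQ, again with no marker at 0. With the microglia score as a covariate the Igf1r difference of ADQ against AV was 0.0051 (p = 0.97), and with the red blood cell score 0.10 (p = 0.43). What part these cells had in the result was not tested. Under the same covariates Igf1r in AV against YNG became called, at 0.47 with the microglia score (p = 0.00044) and 0.39 with the red blood cell score (p = 0.0022). The share of all genes called in AV against YNG rose too, from 21.3% to 34.4% and 34.6% with these scores. In ADQ against AV it fell from 9.3% to 3.9% and 4.5%.

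Between the treatments, 0 of 9 members differed by limma (0 at an unadjusted p below 0.05 and 0 adjusted; the permutation test also called 0), beside 2.13% of all genes higher in AA than ADQ and 2.4% lower. Igf1r was 0.26 lower on the log2 scale in AA (95% interval of AA minus ADQ −0.56 to 0.03, p = 0.080), and called without rat 3988 or 4077 of AA or rat 4005 of ADQ (p between 0.044 and 0.048). For Igfbp2 the interval was −0.27 to 0.44 and for Igf1 −0.74 to 0.39.

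Between rats of a group, several members varied together with marker genes of cell types. Deviations from the group means of log2 values were correlated over the 44 rats with a score for each marker list. The score was the mean log2 level of the markers that passed the filter, only 4 of 7 for CA1 and 5 of 12 for choroid plexus. There were 108 relations in all, of which 47 had an adjusted permutation p below 0.05 for Pearson's r and 35 also for Spearman's rho. These relations were computed for the members only, so no share over all genes stands beside the counts. Whether other genes vary with the scores as often was not tested. Igfbp4 followed oligodendrocyte markers most closely (r = 0.87, p = 1e-05, the smallest 100000 permutations can give, adjusted p = 0.00018; rho = 0.80, p = 1e-05, adjusted p = 0.00027). Without the 2 rats farthest from the median of that score r was 0.84, and it was 0.89 and 0.85 within the series. The 5 rats with Igfbp4 of 1212 or more (3996 and 4107 in AA, 3989 and 4571 in AV, V6 in YNG) lay apart, and among the other 39 rats r was 0.72. Igfbp4 also rose with CA1 pyramidal cell markers (r = 0.76, rho = 0.78, both p = 1e-05, r = 0.75 without 2 rats) and fell with granule cell markers (r = −0.66, p = 1e-05, rho = −0.54, p = 0.00032, r = −0.60 without 2 rats, and −0.37 among the 39 rats).

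Igf2 rose with the meninges and fibroblast score (r = 0.70, p = 1e-05, adjusted p = 0.00018; rho = 0.63, p = 2e-05, adjusted p = 0.00043; r = 0.60 without 2 rats) and the choroid plexus score (r = 0.64, p = 0.00021, adjusted p = 0.0017; rho = 0.55, p = 0.00032, adjusted p = 0.0027; r = 0.56 without 2 rats). Igfbp2 rose with red blood cell markers (r = 0.67, p = 1e-05, rho = 0.66, p = 1e-05, r = 0.62 without 2 rats) and choroid plexus markers (r = 0.53, p = 0.00034, rho = 0.48, p = 0.0013, r = 0.38 without 2 rats). Igf1r fell with microglia (r = −0.64, p = 2e-05, rho = −0.62, p = 4e-05, r = −0.57 without 2 rats) and red blood cell markers (r = −0.65, p = 2e-05, rho = −0.56, p = 0.00018, r = −0.54 without 2 rats).

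Igfbp6 fell with granule cell markers (r = −0.66, p = 2e-05, rho = −0.66, p = 1e-05, r = −0.68 without 2 rats) and rose with oligodendrocyte markers (r = 0.64, p = 3e-05, rho = 0.63, p = 4e-05, r = 0.57 without 2 rats). Igfbp7 rose with microglia markers (r = 0.63, p = 0.00023, rho = 0.49, p = 0.0019, r = 0.40 without 2 rats). The adjusted p-values of r and rho for these relations of Igfbp2, Igf1r, Igfbp6 and Igfbp7 were at most 0.0098. Igfbp7 also rose with endothelial markers (r = 0.58, adjusted p = 0.0078, rho = 0.40, adjusted p = 0.042, r = 0.42 without 2 rats). With oligodendrocyte markers it rose as well (r = 0.56, adjusted p = 0.0040, rho = 0.46, adjusted p = 0.014, r = 0.46 without 2 rats). Igf1 rose with red blood cell markers (r = 0.56, p = 0.00028, adjusted p = 0.0020; rho = 0.52, p = 0.00080, adjusted p = 0.0054; r = 0.49 without 2 rats). It also fell with granule cell markers (r = −0.50, adjusted p = 0.0040, rho = −0.57, adjusted p = 0.0011, r = −0.45 without 2 rats). With microglia markers Igf1 rose (r = 0.51, adjusted p = 0.0055, rho = 0.45, adjusted p = 0.0165, r = 0.44 without 2 rats). For Igfbp5 no relation with any of the 12 lists had an adjusted p below 0.05 for r. For rho the relation of Igfbp5 with granule cell markers did (rho = 0.38, adjusted p = 0.049, with r = 0.40, adjusted p = 0.092, r = 0.38 without 2 rats).

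**Figure D3:**
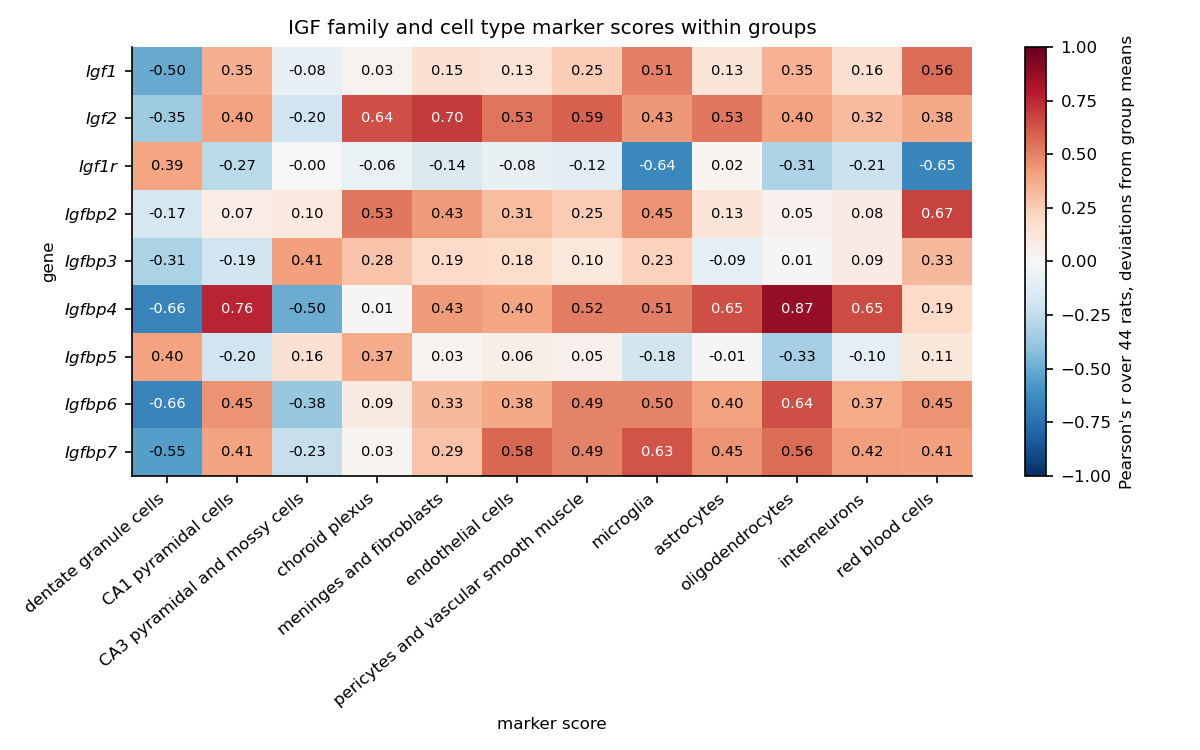
Pearson's r (colour and printed value, −1 to 1) between the deviation of each gene (rows) and of each cell type marker score (columns) from the group means, over 44 rats. The strongest cell is Igfbp4 with oligodendrocytes at 0.87. Igf1r is negative with microglia (−0.64) and red blood cells (−0.65), and Igf2 is positive with meninges and fibroblasts (0.70).

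Several of these scores differed between the ages as well. Oligodendrocyte markers were higher in AV than YNG for 9 of 10 genes (summed level 45800 to 125800 in YNG and 59250 to 184800 in AV, no marker at 0) and endothelial markers for 9 of 9 tested (1515 to 4955 and 2663 to 10680, no marker at 0). Of all genes, 10.6% were higher in that comparison. With the oligodendrocyte score as a covariate, Igfbp4 became lower over all older rats (−0.80, p = 0.00017) where it had been at 0.01. With the same covariate Igfbp6 in AV against YNG was −1.01 (p = 0.00017) in place of −0.45. Choroid plexus markers differed from YNG in no older group (0 of 5 tested called, summed level 25.3 to 143 in YNG, 55.8 to 1467 for AV rats, 43.7 to 1042 for AA rats and 37.5 to 370.2 for ADQ rats, with 7 or 8 of the 12 markers at 0 in at least 1 rat of each group). The highest choroid plexus level was in rat 4009 of AV at 1467, and rat 3985 of AA, highest in Igf2, was next at 1042. The part of the dissection in these values was not tested.

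**Figure D4:**
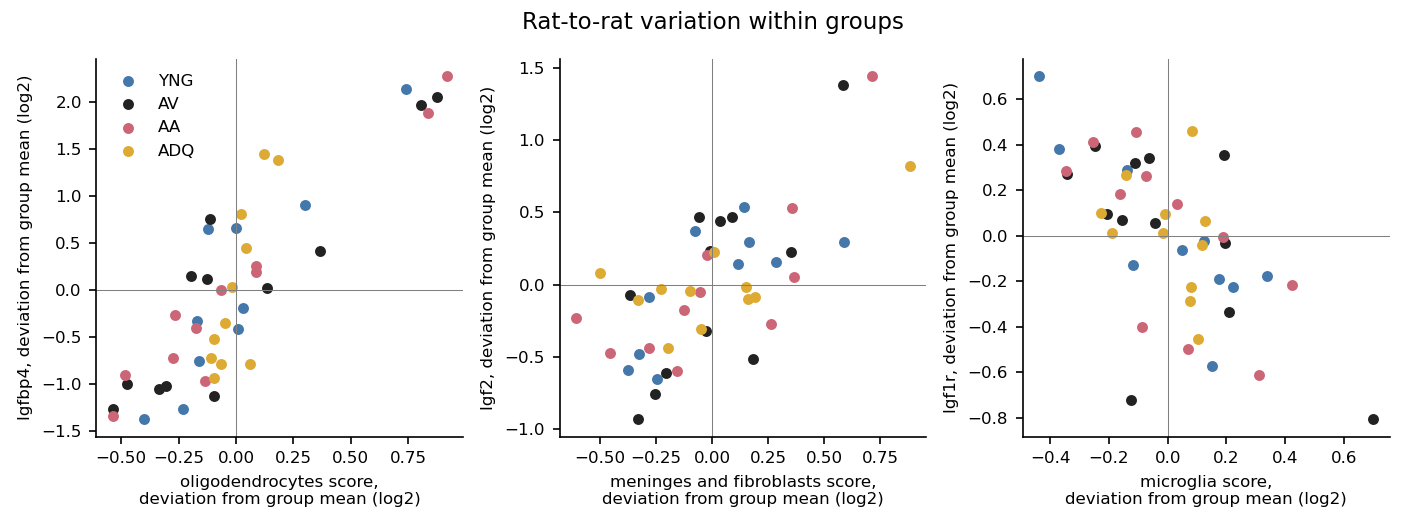
Deviation from the group mean of log2(value + 1) for Igfbp4, Igf2 and Igf1r (vertical axes) against the deviation of the oligodendrocyte, meninges and fibroblast, and microglia score (horizontal axes, log2). Each point is a rat, coloured by group. Igfbp4 rises (r = 0.87, with 5 rats apart at the upper right), Igf2 rises (r = 0.70) and Igf1r falls (r = −0.64).

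Among the members themselves, 5 of 36 pairs were related within groups at an adjusted permutation p below 0.05 for both r and rho. Pairs of other genes were not counted, so no share over all genes stands beside this. Igfbp4 rose with Igfbp6 (r = 0.61, p = 5e-05, rho = 0.53, p = 0.00063, r = 0.53 without 2 rats) and with Igfbp7 (r = 0.51, p = 0.00063, rho = 0.43, p = 0.0059, r = 0.45 without 2 rats). Igf2 rose with Igfbp2 (r = 0.54, p = 0.00039, rho = 0.47, p = 0.0020, r = 0.56 without 2 rats). Igf1 rose with Igfbp6 (r = 0.54, p = 0.00043, rho = 0.59, p = 0.00011, r = 0.61 without 2 rats). Igf1 and its receptor Igf1r went in opposite directions from rat to rat (r = −0.51, p = 0.0011, adjusted p = 0.0079; rho = −0.48, p = 0.0017, adjusted p = 0.018; r = −0.43 without 2 rats), and r was −0.54 and −0.49 within the series.

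Of 13695 genes with a mean of at least 20, those most like each member in these deviations are given as a description. Igf1r was closest to Unc80 (r = 0.90), Srgap3 (0.89) and Cacna1e (0.88). Igfbp4 was closest to Hdac11 (0.89), Hs3st2 (0.88) and Ttc9 (0.87), and Igfbp6 to Chrna4 (0.85), Stard10 (0.85) and Asic1 (0.82). For Igfbp7 they included the lysosomal genes Ctsb (0.80) and Lamp1 (0.78). For Igf2 they were the matrix genes Bgn (0.72) and Fmod (0.69) and the factor Foxc1 (0.65), with Fmod also in the meninges list. For Igf1 they were Uap1l1 (0.82), Gjb6 (0.79) and Git1 (0.77), for Igfbp2 Leng9 (0.77), Ccdc152 (0.75) and Wfdc1 (0.74), for Igfbp5 Khdrbs1 (0.77), Eid1 (0.67) and Ppm1d (0.67), and for Igfbp3 Palm3 (0.66), Stpg1 (0.62) and Rspo1 (0.61).

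The wider insulin and IGF pathway was described through 66 further genes, of which 56 were tested. Ins1, Ins2, Igfals, Insrr, Pappa, Igf2bp1, Igf2bp3 and Irs4 were not analysed here, and Igfbp1 and Igf2bp2 lay below the filter. Over all older rats, 5 of the 56 genes were higher and 11 lower (2 and 7 at an adjusted p below 0.05), with a median change of −0.03. In AV the counts were 5 higher and 7 lower, beside 10.6% and 10.7% of all genes. In AA they were 5 and 9 (12.6% and 14.1% of all genes) and in ADQ 6 and 10 (13.5% and 14.6%). Over all genes, 15.7% were higher and 16.7% lower in older rats, and 14.9% were called in either direction at an adjusted p below 0.05.

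Igfbpl1, a secreted relative of the binding proteins that is expressed in neural progenitors, fell furthest. It ran from 11.1 to 23.1 in YNG with a median of 15.9, and its median was 6.69 in AV rats, 8.72 in AA rats and 9.69 in ADQ rats. All 34 older rats lay below the YNG median and 26 below the lowest YNG rat. Its change was −1.07 ± 0.24 (SE) over all older rats (p = 4.9e-05, adjusted p = 0.0057) and −1.30 in AV (adjusted p = 0.0072); its lowest value was 1.04. Insr, the insulin receptor, rose with Igf1r, from a median of 516 in YNG to 649 over the older rats (0.32, p = 0.0058, adjusted p = 0.044). Igf2r, which clears IGF-II, was at 0.12 over all older rats (p = 0.21) and called in ADQ (0.23, p = 0.044, adjusted p = 0.17).

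Among the adaptors that link the receptors to their cascades, Grb10 (0.36, p = 0.0080), Gab1 (0.36, p = 0.0082) and Irs2 (0.13, p = 0.048) were higher over all older rats, all with an adjusted p above 0.05, and Irs1 was not called (0.11, p = 0.47). In the PI3K-AKT branch the regulatory subunit Pik3r1 rose (0.27, adjusted p = 0.015). The catalytic subunit Pik3ca (−0.32, adjusted p = 0.0099), the kinases Akt1 (−0.27, adjusted p = 0.030) and Akt2 (−0.33, adjusted p = 0.0036) and the translation repressor Eif4ebp1 (−0.47, adjusted p = 0.014) fell. Pik3r2, Gsk3a and Tsc2 were lower at the unadjusted threshold only. In the MAPK branch Hras (−0.52, adjusted p = 0.0056) and Map2k2 (−0.35, adjusted p = 0.014) fell, and Mapk3 was lower at the unadjusted threshold only (−0.23, p = 0.019).

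**Figure D5:**
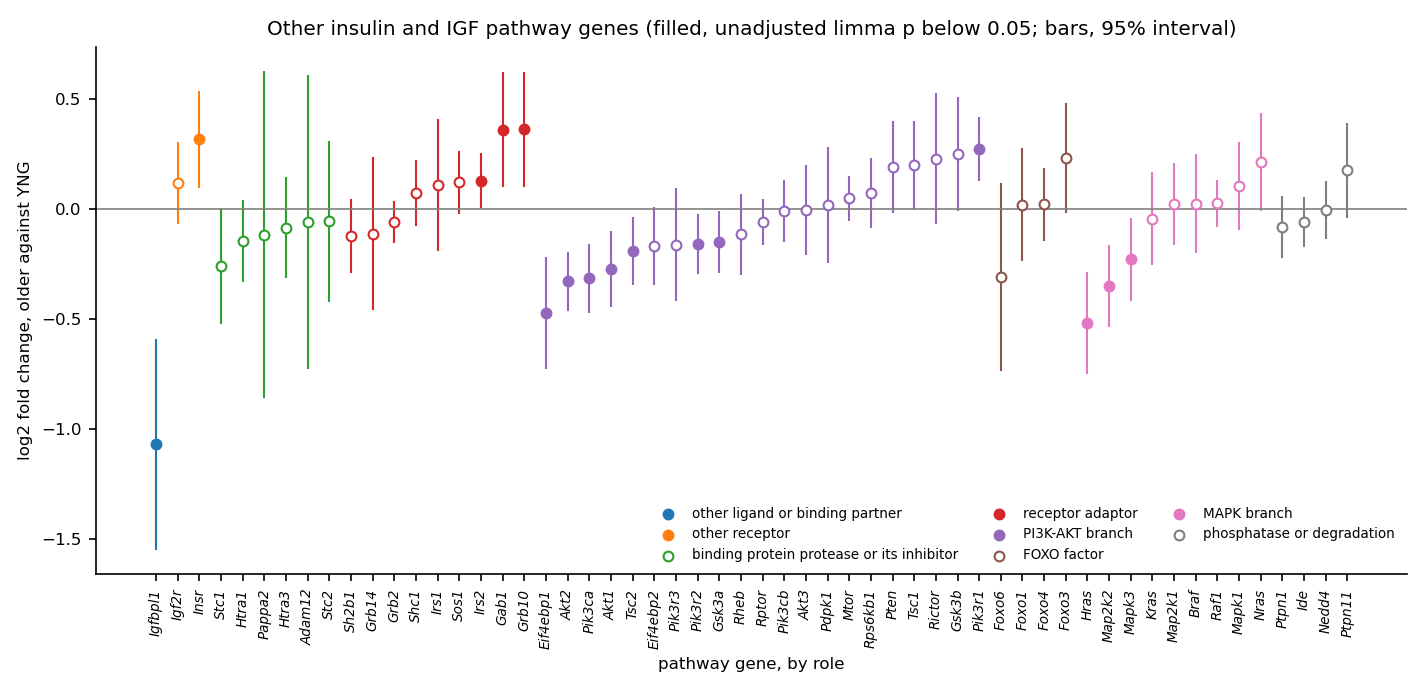
Difference of all older rats from YNG on the log2(value + 1) scale (vertical axis; points are limma estimates, lines 95% intervals) for the 56 pathway genes tested, grouped and coloured by role and ordered by change within a role. Filled points have an unadjusted p below 0.05. Igfbpl1 is lowest at −1.07, and 5 filled points lie above 0 and 11 below.

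Of the proteases of the binding proteins and their inhibitors, Pappa2, Htra1, Htra3, Stc1, Stc2 and Adam12 were tested and none was called over all older rats, and Htra1 was lower in AA (−0.24, p = 0.041, adjusted p = 0.17). Against AV, 3 pathway genes were lower in AA and 0 higher, namely Htra3 (−0.31, p = 0.022), Stc2 (−0.60, p = 0.0065) and Eif4ebp1 (−0.33, p = 0.030), and none had an adjusted p below 0.05, beside 3.1% of all genes lower and 1.4% higher. Only 1 call was made without rats 3989, 4107 and 3996, and likewise with the endothelial, microglia or red blood cell score as a covariate. Of all genes, 4.5% were called in the main fit, 5.1% without these rats and 2.5%, 3.0% and 2.7% with these scores. In ADQ, 5 were lower and 0 higher, namely Htra3 (−0.35, p = 0.0105), Eif4ebp1 (−0.36, p = 0.019), Shc1 (−0.22, p = 0.015), Foxo4 (−0.24, p = 0.018) and Akt2 (−0.19, p = 0.018), again none at an adjusted p below 0.05, beside 5.9% of all genes lower and 3.42% higher. With the endothelial score 0 calls were made by limma at the unadjusted threshold, with the red blood cell score 1 and with the microglia score 3. The share of all genes called fell as well, from 9.3% to 3.1%, 4.5% and 3.9% with these scores in turn. Between the treatments only Shc1 among the 56 genes was called, higher in AA (0.23, p = 0.011, adjusted p = 0.98).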

How the data were processed

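The dentate gyrus of 1 hemisphere was profiled by poly(A) RNA sequencing in 44 male rats. The deposited values are a signal, read counts that the authors divided by a size factor per rat (median ratio normalization) after alignment to rn6 with STAR 2.5.3a in Partek, so the raw depth is not known. The annotation and the counting model are not given in the sources used here. The 24694 rows were summed to 18347 gene identifiers, and the 15598 with a mean of at least 5 were fitted together over the 4 groups with limma 3.58.1 (R 4.3.3, empirical Bayes with a trend) on log2(value + 1), a scale that understates changes of low genes. A count model was not used, since the values are not raw counts. Genes were called at an unadjusted p below 0.05, the study's threshold, with Benjamini-Hochberg adjusted p-values beside it. Each library is a separate rat. The script was tested on simulated data. Correlations used deviations from group means of log2 values and 100000 permutations within groups, two-sided, adjusted over 36 pairs or 108 relations. The members and lists were chosen with earlier results of these data known. Named are the 9 members, pathway genes called in the comparison described, a few set examples (Insr, Igf2r, Irs1, Irs2, Pappa, Htra1, Igfbpl1) and the 3 genes most like each member, of which 1 is not reported here. Alternatives covered the pseudocount, filter, scaling, row choice, series, marker covariates, array weights, permutation and each rat left out.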

Additional observations from a re-analysis of the deposited data

Results flagged for a closer look

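Igfbp4 in YNG had 1 rat far from the others. Rat V6 was at 1351 normalized counts and the next rat at 572.4, and the gap was 0.631 of the range of the group, past Dixon's critical value for 10 samples. Only the YNG values of 15 genes could be checked in this way, since the other groups held more than 10 rats, and chance flags about 1 in 20 groups.

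The Igf1 difference of AA against AV was 0.20 on the log2 scale in the first series of rats and −1.03 in the second. The difference between the series was 1.23 (95% interval 0.15 to 2.30, limma p = 0.027, adjusted p = 0.94). In the second series the AV and AA rats came from separate blocks of rat numbers, and the part of this was not tested.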

How the results depend on the processing

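No paired analysis was possible because the labels give the groups no shared replicate numbers. The marker covariates for oligodendrocytes, microglia, red blood cells and granule cells, and leaving out rats 3989, 4107 and 3996 together, were chosen after seeing the data. Of 1314 member values under other settings, 1235 kept direction and side of the threshold, 33 lost and 42 gained a call and 4 reversed; values called in neither fit were counted as unchanged (146 changed sign). Reversed were Igfbp4 with the oligodendrocyte score (AV −1.03, AA −0.74, older −0.80, all against YNG) and Igf1 in AA against ADQ with the highest row (1.27). The causes were not tested. Scaling to equal totals moved the median of all genes by 0.10 (AV), 0.15 (AA), 0.14 (ADQ) and 0.13 (older), and calls that were higher went from 49.6%, 47.2%, 48.0% and 48.4% to 81.1%, 85.3%, 82.6% and 83.05%. In AA against AV, ADQ against AV and AA against ADQ they went from 31.1%, 36.7% and 47.0% to 52.6%, 47.8% and 61.9%, and by upper quartile in AV against YNG to 61.0%.

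For AV against YNG, 2 members were called, 1 to 4 with 1 rat left out, 1 with upper quartile scaling, 5 with array weights or oligodendrocytes score or red blood cells score or dentate granule cells score, 4 with microglia score. Pathway calls there numbered 12, 9 to 15 with 1 rat left out, 20 with the first series alone, 5 with the second series alone, 30 with array weights, 6 with endothelial cells score, 27 with microglia score, 22 with red blood cells score. Of all genes, 21.3% were called there in the main fit, 33.4% and 6.3% within the first and second series and 49.3% with array weights. With the endothelial, oligodendrocyte, microglia, red blood cell and granule cell scores the shares were 8.3%, 18.2%, 34.4%, 34.6% and 23.3%. For AA against YNG, 3 members were called, 3 to 4 with 1 rat left out, 0 with the first series alone, 5 with array weights or oligodendrocytes score or dentate granule cells score. Of the pathway genes, the count was 14, 10 to 19 with 1 rat left out, 7 with the second series alone, 29 with array weights. The share of all genes called was 26.6% in the main fit, 28.6% and 12.4% within the first and second series and 45.3% with array weights. It was 27.1% with the oligodendrocyte score and 29.85% with the granule cell score. For ADQ against YNG, 5 members were called, 4 to 5 with 1 rat left out, 3 with total scaling, 2 with the second series alone. Pathway calls there numbered 16, 11 to 24 with 1 rat left out, 3 with the second series alone, 41 with array weights. Among all genes, 28.1% were called in the main fit, 33.5% with total scaling, 6.9% within the second series and 51.9% with array weights. For older against YNG, 5 members were called, 4 to 5 with 1 rat left out, 3 with total scaling or the first series alone, 2 with the second series alone. Of the pathway genes, the count was 16, 12 to 23 with 1 rat left out, 25 with total scaling, 5 with the second series alone, 34 with array weights, 26 with microglia score. For AA against AV, 0 members were called, 0 to 1 with 1 rat left out, 1 with upper quartile scaling or the first series alone or the second series alone or dentate granule cells score or without rats 3989, 4107 and 3996. Pathway calls there numbered 3, 1 to 4 with 1 rat left out, 1 with the first series alone or endothelial cells score or microglia score or red blood cells score or without rats 3989, 4107 and 3996. Among all genes, 4.5% were called in the main fit, 3.9% within the first series and 5.1% without those 3 rats. With the endothelial, microglia and red blood cell scores the shares were 2.5%, 3.0% and 2.7%. For ADQ against AV, 1 member was called, 0 to 2 with 1 rat left out, 2 with the highest row, 0 with the first series alone or choroid plexus score or endothelial cells score or oligodendrocytes score or microglia score or red blood cells score or dentate granule cells score or without rats 3989, 4107 and 3996. Of the pathway genes, the count was 5, 5 to 9 with 1 rat left out, 3 with total scaling or the first series alone or microglia score, 10 with the second series alone, 0 with endothelial cells score, 1 with red blood cells score. The share of all genes called was 9.3% in the main fit, 8.7% with total scaling and 5.7% and 9.7% within the first and second series. With the endothelial, microglia and red blood cell scores it was 3.1%, 3.9% and 4.5%. For AA against ADQ, 0 members were called, 0 to 1 with 1 rat left out, 1 with the highest row or own pair of groups or the first series alone or the second series alone or array weights or red blood cells score. Pathway calls there numbered 1, 1 to 3 with 1 rat left out, 2 with total scaling or microglia score or without rats 3989, 4107 and 3996, 4 with own pair of groups or the first series alone, 3 with the second series alone, 7 with array weights, 5 with meninges and fibroblasts score. Among all genes, 4.5% were called in the main fit, 5.6% with the own pair of groups and 6.0% and 4.2% within the first and second series. With array weights the share was 10.2% and with the meninges and fibroblasts score 5.9%. The difference between the series was called for 1 member in AA against AV, 2 with total scaling, 0 with the highest row, and for 0 in ADQ against AV, 1 with upper quartile scaling, 2 with array weights. No other count of members or pathway genes moved by more than 1.5 times. Since raw depth is not known, no counting limit can be set for low genes such as Igf1.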
